A study of Sus scrofa with 10 samples.

Results

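The 100 long noncoding RNAs (lncRNAs) described here were those of pig blood whose level in adult animals stood furthest above every younger age. They were chosen from the 5946 lncRNAs of the deposited table by the measured values themselves. Of these, 5040 spanned under 10000 bases on the genome and lay outside 2 regions that were left out, an unplaced scaffold and a part of chromosome 7. Among them, 3220 had more than 0.1 FPKM (fragments per kilobase, relative to the library's total of mapped reads) in both adult pigs, and these are called the candidates. Each candidate was scored by the log2 of its adult mean plus 0.1 minus the highest such value of the 4 younger ages, and the 100 highest scores were kept. The adult peak of the 100 was therefore set by the choice, is described without a test, and supports nothing.

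Blood RNA came from 10 female Qingyu pigs, 2 at each age, with 1 library per pig and no pig sampled at more than one age. The ages were 0 days (D0, newborn), 7 days (D7, suckling), 28 days (D28, weaning), 180 days (D180, sexual maturity) and 2 years (Y2, adult), where D0, D7 and D28 make up the suckling period and D180 and Y2 the late developmental stage. All pigs were untreated domestic pigs, the RNA was total RNA of whole blood depleted of ribosomal RNA, and the libraries were strand-specific. Because whole blood is a mixture, more cells of a type and more RNA per cell cannot be told apart in any value below.

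LncRNAs are transcripts without a long open reading frame that are often spliced and polyadenylated like mRNAs. Many act in the nucleus, where they can recruit chromatin regulators or affect the transcription of the gene beside them, and others act in the cytoplasm on mRNAs or proteins. They are usually expressed at low levels and in few cell types, and in blood they have been described in the maturation of erythroid, myeloid and lymphoid cells.

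The libraries carried the markers of blood. HBB, the beta chain of adult haemoglobin, had the highest mean of the erythroid list, and the summed level of 12 measured erythroid markers lay between 1.128e+05 and 4.785e+05 FPKM over the 10 libraries. Only 4 of 32 skeletal muscle genes and 2 of 14 genes of skin, fat and vessel wall were found by symbol in the mRNA table, which starts at 0.5 FPKM in at least 1 library. A symbol was known for 9735 of 12354 mRNAs, so a gene not found in this way is not shown to be absent. Depth is not known for single FPKM values, and every mean rests on 2 pigs.

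The 100 lncRNAs were low-level transcripts even at their peak. Their mean FPKM at Y2 ran from 0.227 to 94.8 with a median of 0.483, which was close to the median of 0.493 for the other 3120 candidates, and 24 of the 100 exceeded 1 FPKM. What set them apart was their level at the younger ages. The median of their means was 0.00519 FPKM at D0, 0.0103 at D7, 0.0107 at D28 and 0.0703 at D180, against 0.0891, 0.153, 0.252 and 0.970 for the other candidates. Thus most lncRNAs past the Y2 limit were higher at D180 than at Y2, whereas the median member was near 0 before D180 and low at D180. Such a contrast follows from the rule and is given as a description.

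Values of 0 before adulthood were common among the 100. In 48 of them both D0 libraries were at 0, and the same held for 44 at D7, 46 at D28 and 31 at D180. A median of 5 of the 8 younger libraries were at 0, compared with 0 for the other candidates. For 13 of the 100, every younger library was at 0. The age with the next highest mean was D180 for 48 lncRNAs, D7 for 15, D28 for 13 and D0 for 11, whereas D180 held that place in 92.8% of the other candidates. At least one D180 pig exceeded 0.1 FPKM in 52 of the 100, while both did so in 22. Both Y2 libraries lay above all 8 younger libraries in 94 of the 100, beside 5.62% of all candidates, a figure that the rule used.

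**Figure D1:**
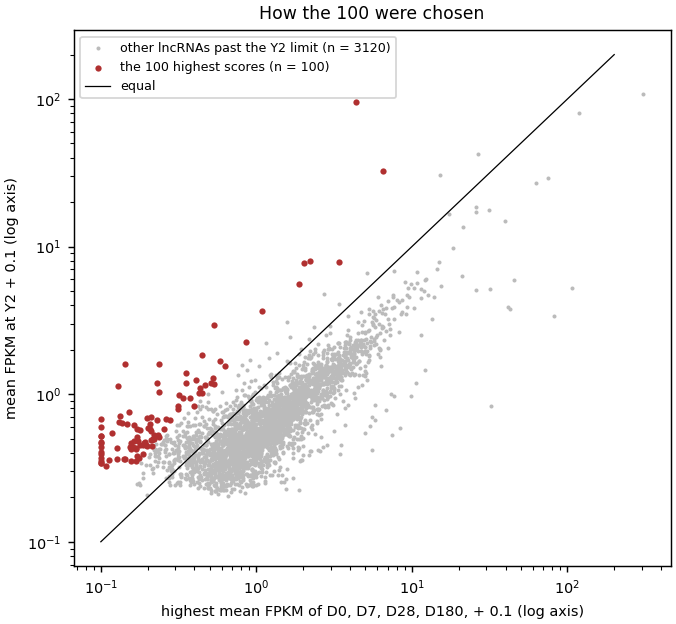
Each point is a candidate lncRNA, with the highest age mean among D0, D7, D28 and D180 on the horizontal axis and the mean at Y2 on the vertical axis, both as FPKM plus 0.1 on log axes. The 100 chosen lncRNAs (red) lie above the line of equal values, and most of the other 3120 candidates (grey) lie below it.

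The scores fell steadily and had no gap at the limit. They ran from 4.43 to 1.06 with a median of 1.54, which corresponds to a 2.90-fold higher level at Y2 on the FPKM plus 0.1 scale, and 403 of the 3220 candidates (12.5%) scored above 0. Just inside the limit, TCONS_00092386 measured 0.276 and 0.260 FPKM at Y2 and 0.152 in one D28 pig. TCONS_00151122 had 0.273 and 0.425 FPKM at Y2 and TCONS_00099935 had 0.370 and 0.137, and all 3 of these scored 1.06. Just outside it, TCONS_00031949 reached 0.677 and 0.912 FPKM at Y2 with a score of 1.05, whereas TCONS_00093310 and TCONS_00089847 both scored 1.04. These 6 neighbours on either side of the limit were alike in score, and membership near the limit is a matter of small differences.

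**Figure D2:**
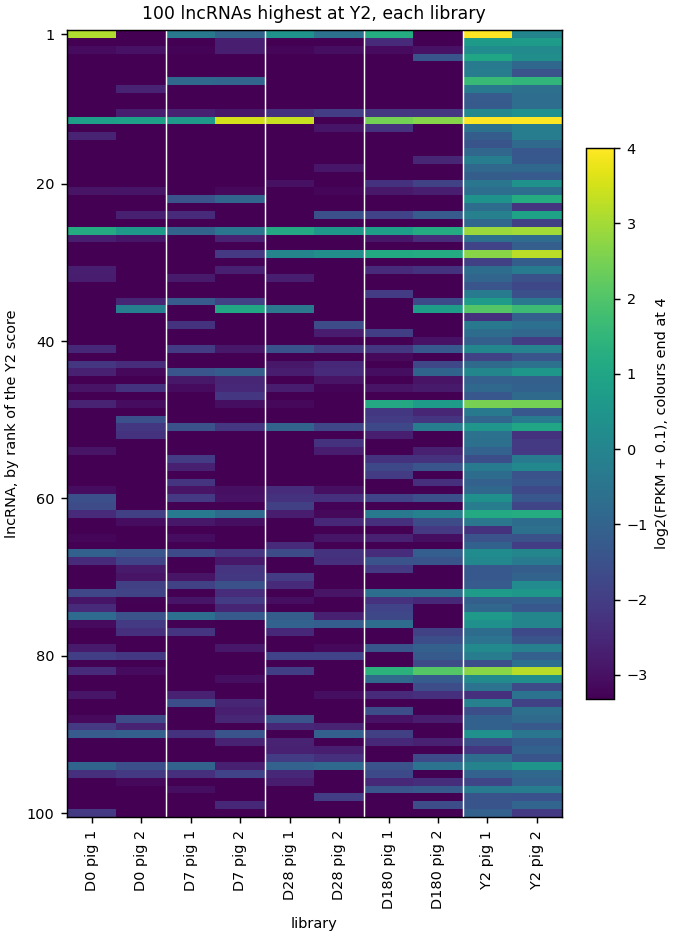
Each row is one of the 100 lncRNAs ordered by score from 1 at the top, each column is a library, and the colour gives log2(FPKM + 0.1), with colours ending at 4. The 2 Y2 columns are brighter than the younger columns in nearly every row, and most of the younger cells are at the dark end, where FPKM is at or near 0.

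The agreement of the 2 adult pigs was weaker for the 100 than for other candidates. The higher pig was within 2-fold of the lower in 65 of the 100 against 85.1% of the other candidates, and the median ratio between them was 1.56 against 1.28. Across lncRNAs, which are not independent replicates, the log2(FPKM + 0.1) values of both Y2 pigs had a Pearson's r of 0.689 for the 100 and of 0.843 for the other candidates. The ratio exceeded 3 in 13 lncRNAs and 5 in 3 of them. Neither pig was regularly the higher one, since pig 1 was above pig 2 in 55 of the 100. Level moved with this spread. The median ratio was 1.89 among the 53 lncRNAs with a Y2 mean under 0.5 FPKM and 1.27 among the 24 above 1 FPKM.

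The first-ranked lncRNA owed its place to a single pig. TCONS_00195450, on an unplaced scaffold at 5801 to 6872, measured 189 FPKM in Y2 pig 1 and 0.883 in Y2 pig 2. In the younger libraries it measured 8.58 and 0 FPKM at D0, 0.684 and 0.402 at D7, 1.27 and 0.570 at D28, and 2.2 and 0.00118 at D180. Y2 pig 2 was thus below one D0, one D28 and one D180 pig. Its Y2 mean of 94.8 FPKM carried an SD of 133 (n = 2), and without Y2 pig 1 its score was -2.16 and its rank 3590. Of the 100, 37 were found again when the rule was applied without Y2 pig 1, and 40 without Y2 pig 2. The limit of 0.1 FPKM then held for the remaining adult pig alone, so further lncRNAs could enter. These counts and the rank of 3590 therefore mix new entries with changes in the members' own scores.

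**Figure D3:**
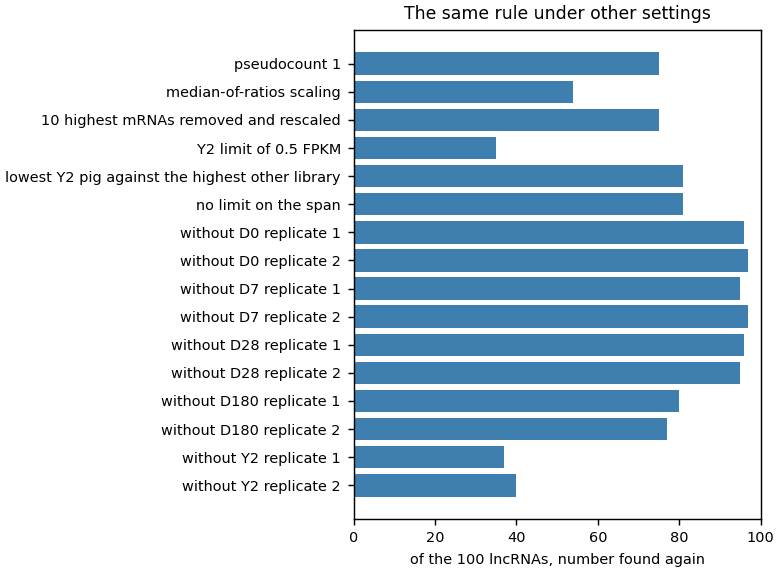
Bars give how many of the 100 lncRNAs were found again when the rule was applied under another setting, on an axis from 0 to 100, and replicate numbers are pig numbers. Leaving out a pig of D0, D7 or D28 kept at least 95, leaving out either Y2 pig kept 37 or 40, and a Y2 limit of 0.5 FPKM kept 35.

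The second rank was even between the adult pigs. TCONS_00053038, on the minus strand of chromosome 13 at 192538206 to 192538772 and 3380 bases from MAP3K7CL, measured 1.5 and 1.52 FPKM at Y2. One D7 pig had 0.0544 and one D180 pig 0.0871, and the other 6 younger libraries were at 0. No other member below the first rank stood as far above its next age by score (3.49).

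Some members overlap other listed lncRNAs, from near copies to much longer transcripts, between which the reads of one locus may be divided. Another listed lncRNA overlapped 26 of the 100 on the same strand, and for 24 of them at least one such transcript was not among the 100. Of the 40 transcripts outside the 100 found in this way, 30 had their highest mean at D180, 4 at Y2, 3 at D7 and 3 at D28. When the FPKM of each of the 24 members was summed with that of every transcript overlapping it on its strand, 16 sums were highest at D180 and 8 at Y2. For those 16 the adult peak belonged to the listed transcript and not to this sum. Some overlapping transcripts were much longer than the member, and one that overlaps TCONS_00024363 differs from it by 41779 bases at an end. The sum is therefore not the level at the member's own position, and how the reads were assigned between transcripts was not tested.

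The first rank was such a case. TCONS_00195450 overlapped 8 other listed transcripts, one of them, TCONS_00195446, with identical positions. TCONS_00195430, which ends at the same base, measured 337 and 280 FPKM at D180 and 108 and 109.9 at Y2, so that the position was transcribed in both adults.

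A pair of members lay at CHD1, which encodes a chromatin remodelling enzyme of active genes. TCONS_00105469 lay on chromosome 2 at 105200400 to 105203206 on the minus strand, inside CHD1 (105113149 to 105205303), and measured 1.07 and 1.01 FPKM at Y2. The 8 younger libraries were between 0.00406 and 0.0521 FPKM, so the groups did not overlap, and the Y2 mean was 37.2-fold that of D7, the next age. TCONS_00097496, on the plus strand at 105212917 to 105222365, was 7614 bases beyond the gene and was at 0 in all 8 younger libraries and at 0.707 and 0.442 FPKM in the adults. TCONS_00097495, whose listed start is 4 bases away and whose end is the same, was present in every younger library (0.145 to 2.42 FPKM) and highest at D180, with 0.0742 and 0.443 FPKM at Y2. TCONS_00105469 was itself overlapped by TCONS_00105468, which had 5.78 and 5.66 FPKM at D180 and 2.70 and 2.21 at Y2. CHD1 mRNA itself followed a different course. It measured 29.3 and 29.8 FPKM at D180 and 17.5 and 17.6 at Y2, and was lower at Y2 by limma (log2 fold change -0.72, SE 0.0644, adjusted p = 2.47e-05). Relative to the median of all mRNAs the CHD1 change was small, as the median-of-ratios scaling described further on gave 0.12 (adjusted p = 0.284).

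The most crowded locus held 3 members beside KAT2B, the gene of a histone acetyltransferase also known as PCAF, on chromosome 13. TCONS_00046031 (6978038 to 6978509) was at 0 in all younger libraries and at 0.320 and 0.515 FPKM at Y2, 6642 bases outside the gene. TCONS_00046029 (6981375 to 6981726), 3425 bases outside it, was likewise at 0 in all younger libraries and at 0.429 and 0.161 FPKM at Y2. TCONS_00046036 (6985749 to 6986398) overlapped KAT2B and measured 0.805 and 1.80 FPKM at Y2 against at most 0.327 in any younger library, with TCONS_00046037, 1 base shorter, at 1.23 and 0 in the same pigs. All 3 were on the minus strand and were highest in both adults. KAT2B mRNA did not follow them in FPKM, with 7.88 and 8.48 at D180 and 8.31 and 8.58 at Y2 (log2 fold change 0.04, SE 0.0802, limma adjusted p = 0.636). The median log2 fold change over all mRNAs was -0.65. Apart from fits with a pig left out, 5 of 7 alternative fits likewise did not call KAT2B by adjusted p. The rest called it higher.

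A nearby gene on the other side of these lncRNAs did have an adult course of its own. PP2D1, which carries a protein phosphatase 2C-like domain and whose mRNA was singled out after its values were seen, lies at 6939990 to 6958513, 19525 bases from TCONS_00046031. Its mRNA was at 0 in both D0 and both D180 libraries, between 0 and 0.02 FPKM at D7 and D28, and at 19.6 and 18.1 FPKM at Y2. The log2 fold change of Y2 against D180 was 4.31 (SE 0.0668, adjusted p = 2.17e-08), the smallest p of the 12354 mRNAs. With median-of-ratios scaling it was 3.68. No other mRNA within 100 kb of the 100 lncRNAs passed the full call upward.

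**Figure D4:**
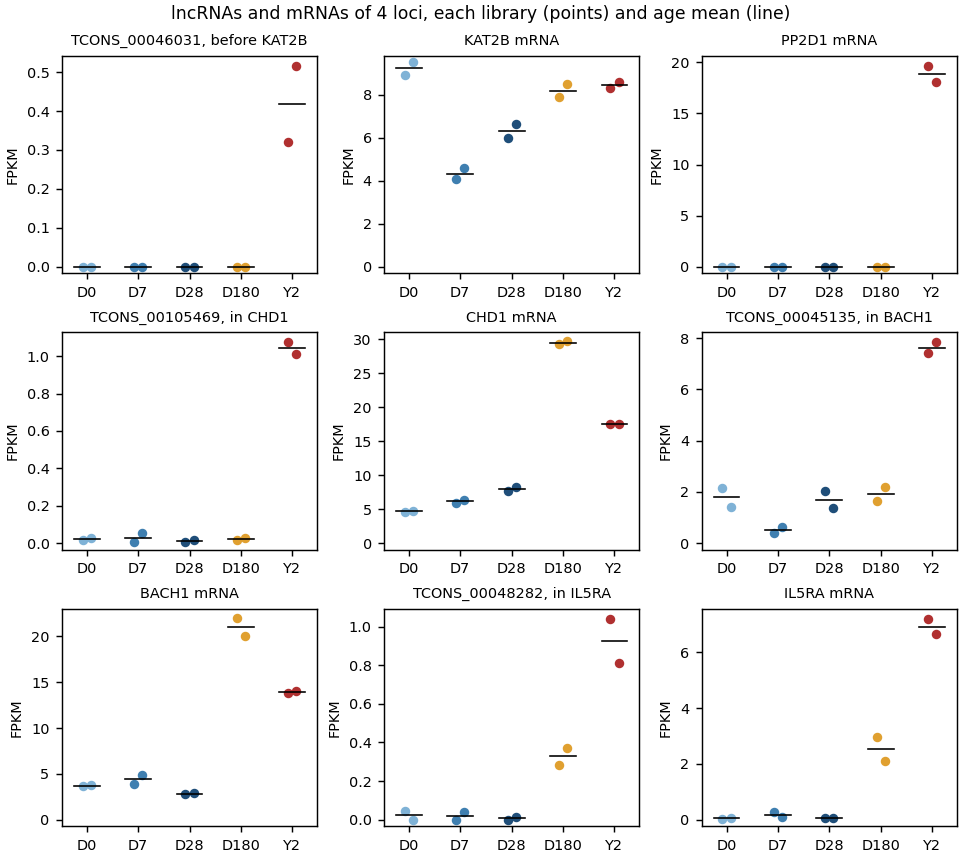
Points are single libraries and lines are age means, in FPKM on axes that start at 0 and differ between panels, for lncRNAs and mRNAs at 4 loci. TCONS_00046031 and PP2D1 mRNA were at or near 0 at the younger ages and present in both Y2 pigs, KAT2B mRNA was about level from D180 to Y2, the mRNAs of CHD1 and BACH1 were highest at D180, and TCONS_00048282 and IL5RA mRNA were present at D180 and higher again at Y2.

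Further loci also held more than one member. Grouping members within 10 kb of each other gave 91 loci, of which 8 held 2 or more members and 17 members in all. The 7 loci with 2 members were tied, so all of them are described. At FAM171A1 on chromosome 10, TCONS_00020765 (46480094 to 46489651) had 1.86 and 1.12 FPKM at Y2, and TCONS_00020762, which starts at the same base, had 0.764 and 0.305. In both the only younger library above 0 was D180 pig 2, at 0.270 and 0.0728 FPKM. The shared start means that their reads may be shared too.

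At LOC110255360 on chromosome 9, TCONS_00179373 and TCONS_00179426 are listed with identical positions (2980847 to 2981019), and their values may likewise divide one set of reads. TCONS_00179373 measured 2.99 and 2.72 FPKM at Y2, 0.442 and 0.426 at D7, and 0 at D28 and D180, and was near 0 at D0. TCONS_00179426 had 1.25 and 2.23 FPKM at Y2 and 0.269 and 0.425 at D7, and it was at 0 at D0, D28 and D180. Both members of the pair were thus present at D7, listed at 0 at D28 and D180, and present at a higher level in the adults.

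Beside PTK2, the gene of focal adhesion kinase, TCONS_00125785 (chromosome 4, 2897096 to 2898720) measured 0.980 and 1.20 FPKM at Y2, and its younger libraries lay between 0 and 0.153. TCONS_00125790 (2901103 to 2905161) had 0.654 and 0.496 FPKM at Y2 and at most 0.221 before. PTK2 mRNA, 1036 bases from the nearer lncRNA, went the other way, from 5.07 and 5.11 FPKM at D180 to 2.17 and 2.44 at Y2 (log2 fold change -0.88, limma adjusted p = 0.000103), although with median-of-ratios scaling it was -0.16 (adjusted p = 0.527). Near LOC100622710 on chromosome 6, TCONS_00144593 (55906761 to 55906936) was at 0 in all younger libraries and at 0.741 and 0.264 FPKM at Y2. Its neighbour TCONS_00144588 (55904901 to 55905379) had 0.240 and 0.729 FPKM at Y2 and up to 0.141 before. The adult pigs were ordered in opposite ways in this pair.

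Higher and more graded were the members at LOC396867 on chromosome 13. TCONS_00051227 (138222894 to 138224022) measured 5.54 and 5.45 FPKM at Y2, 2.03 and 1.53 at D180, and at most 0.0616 in the suckling period. TCONS_00051228 (138224513 to 138224749) measured 6.39 and 9.14 FPKM at Y2, 2.49 and 4.06 at D180, and at most 0.154 earlier. Both appeared with the late developmental stage and were higher again in the adults. Another lncRNA there, TCONS_00051230 (138226334 to 138236860), was over the span limit and so not chosen, and was looked at after its values were seen. It had 0.323 and 0.721 FPKM at D180 and 5.27 and 5.11 at Y2. TCONS_00043828, on the other strand at 138230175 to 138230237, had 0.753 and 0.245 FPKM at D180 and 0.593 and 0.129 at Y2.

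The remaining pair lay where IL5RA, the alpha chain of the interleukin-5 receptor of eosinophils and basophils, and TRNT1, which adds the CCA end to transfer RNAs, overlap on chromosome 13. TCONS_00048282 (59688531 to 59690184) had 0.286 and 0.370 FPKM at D180 and 1.04 and 0.813 at Y2, and TCONS_00048284 (59689616 to 59690184) had 0.476 and 0.339 at D180 and 1.02 and 1.14 at Y2. In the suckling period neither exceeded 0.0437 FPKM. IL5RA mRNA shared this course, with at most 0.257 FPKM in the suckling period, 2.96 and 2.10 at D180 and 7.2 and 6.65 at Y2. TRNT1 mRNA did not, being 6.23 and 5.79 FPKM at D180 and 4.24 and 3.79 at Y2. TCONS_00048283, listed at the position of TCONS_00048282 but not among the 100, had 0.244 and 0.483 FPKM at D180 and 0.00851 and 0.633 at Y2. These lncRNAs overlap each other, so they may share reads, and the gene table used gives no strand, so reads of the lncRNAs and of the overlapping mRNAs may not be fully separable.

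Chromosome 13 carried 12 of the 100, the most of any chromosome, followed by 8 on chromosomes 2 and 4 and 7 each on 5, 10 and X. The share of the other candidates on chromosome 13 was not counted, so whether 12 is many is not known. The loci of KAT2B, LOC396867 and IL5RA each gave more than one of the 12. Besides TCONS_00053038, the stretch around 192 Mb of chromosome 13 held 2 more members, a grouping made after their positions were seen. TCONS_00045135 (192695086 to 192698275) overlapped BACH1, a haem-binding repressor of transcription, and measured 7.42 and 7.85 FPKM at Y2 against 0.406 to 2.18 in the younger libraries. TCONS_00053016 (192326380 to 192326489), inside LTN1, the ubiquitin ligase that clears stalled nascent chains, had 0.445 and 0.385 FPKM at Y2 and at most 0.111 before. Both overlapping mRNAs were highest at D180. BACH1 mRNA measured 22 and 19.99 FPKM at D180 and 13.8 and 14.0 at Y2.

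The other high-ranking members were single transcripts with low adult levels. TCONS_00114571 in ZNF713 had 0.680 and 0.548 FPKM at Y2 and 0.0651 in one D0 pig, and TCONS_00176013 in SCFD2 had 0.327 and 0.510 at Y2 and 0 elsewhere, although TCONS_00176012, which spans it, was present at every age and highest at D180 (1.77 and 1.81). TCONS_00134456 on chromosome 5 was also at 0 in every younger library and had 0.276 and 0.473 FPKM at Y2. TCONS_00023867 on chromosome 10 reached 0.573 and 0.747 FPKM at Y2, and TCONS_00053828 on chromosome 14 reached 0.345 and 0.753. In these 2, no younger library exceeded 0.104 FPKM. All 5 had both adults above every younger pig.

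Among the 5 members with the highest adult means, 2 have not been described yet. TCONS_00100229 (chromosome 2, 6753887 to 6757178), in a RefSeq lncRNA gene, measured 33.5 and 31.8 FPKM at Y2. It was also present earlier, with 1.60 and 1.67 FPKM at D0, 1.42 and 11.5 at D7, 10.3 and 0 at D28, and 5.45 and 6.23 at D180. TCONS_00100228, with the same start and an end 1 base away, took the opposite course, with 102 and 114 FPKM at D180 and 0 in both Y2 pigs, and the 2 may divide one set of reads. Within TCONS_00100229 the pigs of D7 and of D28 disagreed strongly, whereas those of D0, D180 and Y2 did not. TCONS_00190750, listed with 143 bases on an unplaced scaffold, was higher at each later age, from 0 at D0 and 0 and 0.134 at D7 through 0.908 and 1.12 at D28 and 2.09 and 2.16 at D180 to 6.33 and 9.43 FPKM at Y2.

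Span, which the rule limited only to under 10000 bases, and features that it did not use differed in share between the 100 and the other candidates. The median genomic span was 406 bases (31 to 9558) against 845, and 32% spanned under 200 bases against 16.2%. Because the authors kept transcripts longer than 200 nt, positions this short may not cover whole transcripts, and the spans are to be read with that doubt. Short members had the larger spread between the adult pigs, with a median ratio of 1.96 under 200 bases and 1.43 at or above it. The plus strand held 49% of the 100 and 55.3% of the others. One of the 100 carried an Ensembl identifier and the other 99 came from the authors' assembly.

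Position relative to known genes differed as well. A RefSeq protein-coding gene was overlapped by 36% of the 100 against 60.8% of the other candidates, a RefSeq lncRNA gene by 17% against 13.7%, and no RefSeq gene by 47% against 24.7%. A protein-coding gene lay within 100 kb of 87% and 94.7%. Both members on unplaced scaffolds count among those without a gene, because the gene table gives no positions there. The X chromosome held 7% of the 100 and 3.75% of the others. TCONS_00204607 is listed on the Y chromosome (4541210 to 4543498), although the pigs were female, and measured 1.18 and 0.915 FPKM at Y2 and 0 to 0.516 before. Overlapping it, TCONS_00204609 had 1.70 and 1.75 FPKM at D180 and 0 at Y2, and 17 lncRNAs of the table are listed there.

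Most lncRNAs around the 100 had their highest mean at D180. Of 68 other listed lncRNAs within 10 kb of a member, 12 (17.6%) were highest at Y2, beside 14% of the whole table, and 46 (67.6%) were highest at D180, beside 67.8%.

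The rule used the younger means, but not their differences from one another, and these steps were tested by limma over all 5946 lncRNAs, on the log2(FPKM + 1) scale, which understates changes of low transcripts. Since the rule required low younger means, few calls could arise among the 100, and their counts are a description from which nothing is read. A full call needed both an adjusted p not above 0.05 and a change of 1.5 or more on that scale. From D0 to D7, 0 of the 100 were called higher and 0 lower, beside 0.118% and 0.219% of the table, and 3 were higher and 2 lower at an unadjusted p under 0.05. From D7 to D28 the counts were again 0 and 0, beside 0.202% and 0.118%, with 3 and 3 at an unadjusted p under 0.05. By adjusted p alone, TCONS_00179373 rose from D0 to D7 (log2 fold change 0.52, SE 0.0650, adjusted p = 0.00964) and fell from D7 to D28 (-0.52, adjusted p = 0.00648). That fall was shared by TCONS_00180787 (-0.62, SE 0.0958, adjusted p = 0.0130), while TCONS_00190750 rose (0.92, SE 0.163, adjusted p = 0.0224). These shares of the 100, 1% up and 0 down in the first step and 1% up and 2% down in the second, stood beside 0.875% and 0.992%, and 4.24% and 1.01%, of the table.

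From D28 to D180, the step into the late developmental stage, 1 of the 100 was called higher and 0 lower, beside 3.63% and 0.387% of the table. It was TCONS_00051228 (log2 fold change 1.97, SE 0.205, adjusted p = 0.000132), and without D180 pig 2 or without D28 pig 1 the count was 2. By adjusted p alone, 10 of the 100 were higher, against 55.8% of the table, and 0 were lower, against 2.79%; the counts at an unadjusted p under 0.05 were also 10 and 0. The largest of these after TCONS_00051228 were TCONS_00051227 (1.46, SE 0.0955, adjusted p = 2.4e-05), TCONS_00180787 (0.77) and TCONS_00190750 (0.64). The IL5RA pair, TCONS_00048284 (0.49) and TCONS_00048282 (0.40), was among the 10. The low share was built into the rule, which admitted no lncRNA with a high D180 mean unless Y2 was higher still.

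Scaling changed this step for the whole table. FPKM divides by a total in which a few transcripts such as HBB take a large share, and the summed erythroid markers lay at 3.247e+05 to 3.483e+05 FPKM at D28 and at 1.128e+05 to 1.353e+05 at D180. Median-of-ratios scaling moved the median log2 fold change of all lncRNAs from 0.45 to 0.06 at this step, and left 2 of the 100 higher by adjusted p, TCONS_00051227 and TCONS_00051228, beside 3.82% of the table. The scaling divided D180 libraries by 2.87 and 3.03 and Y2 libraries by 1.60 and 1.59, which by itself raises Y2 against D180. It divided D0 libraries by 0.437 and 0.455 and D7 libraries by 0.501 and 0.539, which by itself lowers Y2 against these ages. After median-of-ratios scaling the rule found 54 of the 100 again. The highest mean was then at Y2 in 93 of the 100, at D0 in 6 and at D7 in 1. Of all candidates, 24.8% were then highest at Y2. When each library was rescaled without the 10 most abundant mRNAs, all 100 kept Y2 as their highest age, beside 26.6% of candidates. That rescaling divided D180 libraries by 1.67 and 1.64 and Y2 libraries by 1.05 and 1.01, which also raises Y2 against D180. The choice of the members sets both differences from the candidates.

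The mRNA table was not used by the rule, and it was used to ask whether the protein-coding genes that the members overlap changed from D180 to Y2. The 36 members overlapped 34 protein-coding genes, of which 21 had an mRNA row. None passed the full call (0 higher and 0 lower, beside 0.105% and 1.25% of 12354 mRNAs), whereas 3 higher and 15 lower had an unadjusted p under 0.05. By adjusted p alone the same numbers held, 3 (14.3%) higher and 15 (71.4%) lower, beside 2.49% and 84.6% of the table. Their median log2 fold change was -0.48, beside -0.65 for all mRNAs.

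The 3 that rose were IL5RA, EFHC2 and DTNA. IL5RA mRNA rose from 2.53 ± 0.608 to 6.92 ± 0.388 FPKM (SD, n = 2), with a log2 fold change of 1.18 (SE 0.119, limma adjusted p = 3.87e-05). EFHC2, on the X chromosome with TCONS_00201171 inside it, encodes an EF-hand protein, and its mRNA went from 0.345 and 0.421 FPKM to 1.53 and 1.18 (0.76, limma adjusted p = 0.00014). DTNA encodes alpha-dystrobrevin of the dystrophin complex, and its mRNA had 0.688 and 0.759 FPKM at D180 and 1.00 and 1.08 at Y2 (0.24, limma adjusted p = 0.0287). The DTNA call was lost with a pseudocount of 0.1, with only D180 and Y2 in the fit, and when D180 pig 1, Y2 pig 1 or Y2 pig 2 was left out, with log2 fold changes of 0.21, 0.27 and 0.22 in the last 3 cases. The lncRNAs inside these genes had adult values of 1.46 and 0.923 FPKM for TCONS_00201171 and of 0.188 and 0.393 for TCONS_00148029 in DTNA.

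**Figure D5:**
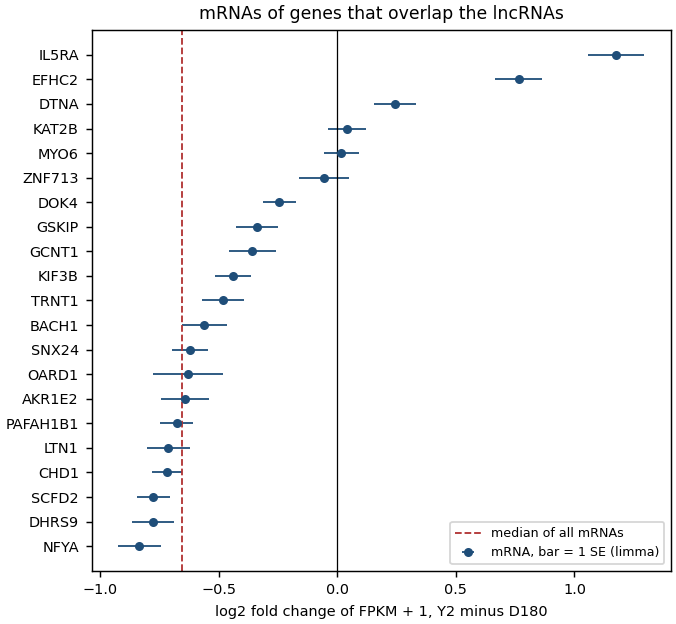
Points give the log2 fold change of FPKM + 1 from D180 to Y2 for the 21 mRNAs of protein-coding genes that overlap one of the 100 lncRNAs, and bars are 1 SE from limma. IL5RA stands at 1.18 and EFHC2 at 0.76, while most of the others lie between 0 and -1 around the median of all mRNAs at -0.65 (dashed line).

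The 15 that fell included CHD1, BACH1, LTN1 and TRNT1, and also NFYA, a subunit of the CCAAT-binding factor NF-Y, DHRS9, a short-chain dehydrogenase, and GCNT1, an enzyme of O-glycan branching. NFYA mRNA fell by 0.84 and DHRS9 mRNA fell by 0.78 on the log2 scale, beside the median of -0.65 over all mRNAs. TCONS_00067701 in DHRS9 had 3.999 and 3.17 FPKM at Y2 and the transcript overlapping it, TCONS_00067704, had 8.01 and 6.64 at D180 and 0.315 and 0.548 at Y2, while DHRS9 mRNA declined from 42.5 and 44.1 to 24.0 and 25.6. Of the 21 overlapping mRNAs, 4 (19.05%) had their highest mean at Y2, namely IL5RA, EFHC2, DTNA and MYO6 (myosin VI), beside 3.45% of all mRNAs, and 16 were highest at D180. MYO6 mRNA was level in FPKM between D180 (1.39 and 1.56) and Y2 (1.56 and 1.44), beside the median change of -0.65 over all mRNAs. Apart from fits with a pig left out, 5 of 7 alternative fits did not call it by adjusted p, and the rest called it higher.

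Median-of-ratios scaling moved the median change of all mRNAs from D180 to Y2 from -0.65 to 0.01, and the share of calls by adjusted p that were higher went from 2.86% to 65.4%. Under it 6 of the 21 overlapping mRNAs were higher and 0 lower by adjusted p, beside 7.47% and 3.95% of the table, and 1 of them, IL5RA (1.53), passed the full call upward and 0 downward, beside 0.445% and 0.0809%. Rescaling without the 10 most abundant mRNAs likewise gave 1 higher and 0 lower, beside 0.405% and 0.202%. The direction of the 15 that fell is therefore relative to the FPKM total, whereas IL5RA, EFHC2 and DTNA were higher under both. CHD1, BACH1, LTN1 and TRNT1 had positive values of 0.12, 0.26, 0.04 and 0.21 there, none past the adjusted p limit.

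Within 100 kb of the lncRNAs there were 162 mRNAs, of which 1 was called higher (PP2D1) and 2 lower, CLEC1B and TREML1, receptors of platelets, beside 0.105% and 1.25% of all mRNAs. By adjusted p alone 7 (4.32%) were higher and 140 (86.4%) lower, beside 2.49% and 84.6%. Besides those named, the higher ones were RGS2, a regulator of G-protein signalling, and the erythroid genes AHSP and RHAG. With median-of-ratios scaling the full call gave 4 higher and 0 lower, beside 0.445% and 0.0809%, and adjusted p alone gave 16 higher and 7 lower, beside 7.47% and 3.95%. The median log2 fold change was -0.68.

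The summed level of red cell markers was higher at Y2 than at D180. It was higher still in every library of the suckling period. The adult peak and the low younger levels of the lncRNAs were set by the rule, so nothing is read from their course beside this sum. The part of red cells in the levels of the lncRNAs was not tested. Summed over 12 measured genes, the erythroid list had 1.128e+05 to 1.353e+05 FPKM at D180 and 2.363e+05 to 2.821e+05 at Y2, and by adjusted p 9 of its genes were higher and 1 lower, beside 2.49% and 84.6% of all mRNAs. Among its highest genes HBB rose by 1.07 on the log2 scale, ALAS2, the first enzyme of haem synthesis in red cells, by 0.90, and AHSP, the chaperone of alpha-globin, by 1.29. EPB42, a red cell membrane protein, fell by 0.31 and had 0.40 with median-of-ratios scaling.

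In the eosinophil and basophil list, to which IL5RA belongs, 4 genes were higher and 2 lower by adjusted p, beside the same 2.49% and 84.6%. Of 9 genes 6 were measured, with a sum of 81.8 to 83.0 FPKM at D180 and 95.9 to 97.0 at Y2, against 9.18 to 14.5 in the suckling period. ALOX15, the 15-lipoxygenase of eosinophils, rose from 2.36 and 2.5 FPKM to 44.4 and 43.9 (3.72), and EPX, eosinophil peroxidase, GATA2 and IL5RA also rose. The rise of ALOX15 was larger than that of the sum, so the other measured genes of the list together were lower in FPKM at Y2. CCR3, the eotaxin receptor, and MS4A2, a chain of the IgE receptor, fell by 0.87 and 0.81, and with median-of-ratios scaling their values were -0.01 and 0.04. The part of these cell types in the adult levels of the lncRNAs was not tested.

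The remaining lists were mostly lower in FPKM at Y2, as were 84.6% of all mRNAs by adjusted p. All 11 platelet genes, 12 interferon-stimulated genes, 10 B cell, 7 plasma cell and 6 monocyte genes measured were lower by adjusted p, and so were 11 of 12 T cell genes and 4 of 4 muscle genes. The paper, by its own calls, placed the mRNAs upregulated from D180 to Y2 mainly in muscle processes such as sarcomeres. Most of the muscle list used here was not found by symbol. In the NK and cytotoxic list 6 rows were lower and 1 higher, in the neutrophil list 1 was lower and 4 higher, and in the list of skin, fat and vessel wall 1 was lower. Of the platelet genes PPBP fell by 1.70 and of the interferon-stimulated genes MX1 fell by 2.72, and both stayed below 0 with median-of-ratios scaling (-0.81 and -1.81). CD79B of B cells fell by 0.82 but was at 0.03 under that scaling, as were LYZ of monocytes (-0.88 and -0.00) and CD3E of T cells (-0.84 and 0.03) near 0.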

How the data were processed

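Whole-blood RNA of 10 pigs, 2 at each of 5 ages, was measured, and groups were taken from the sample labels. The authors aligned reads with HISAT2 2.0.4 to Sscrofa11.1, quantified mRNAs with StringTie 1.3.3, and assembled lncRNAs, keeping transcripts longer than 200 nt without coding potential, which they quantified with the Cufflinks 2.2.1 programs. The submitters' processing notes also name CASAVA 1.8.2. Both tables were deposited as FPKM, scaled to transcript length and mapped reads, and hold rows above 0.1 FPKM (5946 lncRNAs) or 0.5 FPKM (12354 mRNAs) in at least 1 library. Columns of other samples numbered 0. FPKM holds no counts, so the number of reads behind each value, also behind the low values and those of 0, is unknown, although the paper lists the reads of each library. Nothing in the labels gives a batch.

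The members and the gene lists were chosen with earlier results of these data known. Ages were compared with limma (version 3.58.1, under R 4.3.3) fitted once to log2(FPKM + 1) of the 10 libraries, with a mean-variance trend, two-sided p-values and Benjamini-Hochberg adjustment over all rows of a table; the fit was tested on simulated data. An exact permutation test of 2 pigs against 2 cannot go below p = 0.333 and was not used. P-values set a change against the spread between pigs of the same age. That spread was pooled over the 5 ages and drawn toward a trend shared by all rows, so it is not that of the compared ages alone. Symbols came from a table of Ensembl identifiers, which named 9735 of 12354 mRNAs, and gene positions from RefSeq on Sscrofa11.1, in which 9043 of 20663 protein-coding genes matched an mRNA row. The gene table gives neither strand nor positions on unplaced scaffolds. The text names the members with the 15 highest scores, the 5 with the highest Y2 mean, ranks 98 to 103, loci with several members, overlapping genes that passed a call, and up to 4 genes per marker list with the highest mean, besides genes said to be chosen later and genes named beside a described lncRNA. For median-of-ratios scaling, the geometric mean of each of the 11527 mRNAs that were nowhere at 0 was taken, and a library was divided by its median ratio to those means (0.437 to 3.03). Other alternatives were a pseudocount of 0.1, fits with only the ages compared, with the pig number as a block or without the trend, the 10 highest mRNAs removed, a filter of 1 FPKM in 2 libraries, a fold limit on the ratio of mean FPKM, and each pig left out. Python 3.11.15, numpy 2.4.6, pandas 2.3.3 and matplotlib 3.10.9 were used.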

Additional observations from a re-analysis of the deposited data

How the results depend on the processing

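Of the 100 lncRNAs, median-of-ratios scaling found 54 again and a Y2 limit of 0.5 FPKM 35, the other 4 settings of the rule 75 to 81, and leaving out a pig 37 to 97. With adjusted p alone (added after seeing the data), the fold limit on the ratio of mean FPKM, and a pseudocount of 0.1, in this order, the members higher were 1, 1 and 3 from D0 to D7, 1, 1 and 2 from D7 to D28, and 10, 9 and 8 from D28 to D180, and the members lower from D7 to D28 were 2, 2 and 3. From D0 to D7 a pseudocount of 0.1 gave 1 lower. Both other scalings gave 0 higher from D28 to D180, and leaving out a pig gave 1 to 2. For mRNAs of overlapping genes the same 3 settings gave 3, 1 and 1 higher and 15, 1 and 1 lower, each other scaling gave 1 higher, and genes within 100 kb gave 1 higher and 2 lower. That wider set gave 7 and 140 by adjusted p alone, 2 and 8 by the ratio of means, 2 and 6 with a pseudocount of 0.1, 4 and 0 with each other scaling, and 1 to 2 lower with a pig left out. Over all marker lists 2 rows were higher and 20 lower by the full call, against 18 and 72 by adjusted p alone, 5 higher by the ratio of means, 9 and 4 with median-of-ratios scaling, and 8 and 4 with the 10 highest mRNAs removed; leaving out a pig gave 19 to 21 lower. The change of MYO6 mRNA ran from -0.0335 (without D180 pig 1) to 0.067 with a pig left out and was -0.0166 without Y2 pig 1, and that of KAT2B mRNA ran from -0.00591 (without D180 pig 1) to 0.0883. For each of these mRNAs, 5 of 7 alternatives with no pig left out gave no call by adjusted p, and the rest called it higher. The cause of these differences was not tested. Apart from the shares given in the sections above, the share of the whole table called under each setting was not counted. Counts without such a share are a description, and whether they are high or low is not known. The pig number as a replicate block changed no count of calls (1 member higher from D28 to D180, as without it); same-numbered pigs were different animals, and the correlation of their differences over 12354 mRNAs lay between -0.08 and 0.08 over 10 pairs of ages. Restricting overlaps to the same strand was not run.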
